A study of Mus musculus with 6 samples.

Results

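Cd14, Cd79b, Fcer2a, Pigr, Pecam1 and Ly6c2 encode 6 surface proteins that are best known from blood cells, vessels or mucosal surfaces, and all 6 gave transcripts in single cells sorted as alveolar type II (ATII) cells of the mouse lung or grown from them. They are 6 of the 52636 genes in the count matrix. The 6 were picked by name with their levels in these cells already known, so their levels by library and by Retnla share are given as a description, without a test. The study set out to measure the response of ATII cells to interleukin 4 (IL-4) in young and in old animals, and its design text gives another interleukin number. Per the labels, 3 expression libraries were made from mice of IL4Ra WT genotype: cells from young mice on day 13 of culture, cells from young and old mice on day 13 of culture, and freshly sorted cells from young and old mice on day 0, with 1 library in each group. Each library pooled cells of several tagged samples. In the culture, which used neither serum nor feeder cells, the cytokine at 10 ng/ml or PBS was added on day 3 and cells were collected on day 13.

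The cell barcodes carried 3 library names, and 0 of them match the labels, while 0 features of the matrix are multiplexing tags. A cell therefore has no known day, age or treatment. The 3 names are written A, B and C, and neither cytokine against PBS, nor old against young, nor cultured against fresh could be compared. The whole matrix counts as 1 sample, so no p-value is given, and every interval is a 95% exact interval that covers counting error only. After filtering, library A held 16367 cells with 3749 UMIs (unique molecular identifiers, each 1 captured transcript molecule) in the median cell, library B 5593 cells with 8349, and library C 14580 cells with 3341. Their totals were 63658436, 48676834 and 53329664 UMIs. Libraries A and B shared 20 cell barcodes, A and C shared 67, and B and C shared 22. Without those cells no level of the 6 genes moved by as much as 1.5 times.

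As background, ATII cells secrete surfactant and renew the alveolar epithelium, and they sit at the surface where inhaled microbes and immunoglobulins meet the body. CD14 hands bacterial lipopolysaccharide to Tlr4 and Ly96. Cd79b pairs with Cd79a as the signalling arm of the B cell receptor, and Fcer2a encodes CD23, the low-affinity IgE receptor, which IL-4 raises on B cells. Pigr encodes the polymeric immunoglobulin receptor, which carries IgA across epithelia. Pecam1 encodes CD31, an adhesion molecule of endothelial junctions, and Ly6c2 encodes a lipid-anchored protein that marks classical monocytes. Retnla encodes a secreted resistin-like molecule that IL-4 and IL-13 raise in mouse tissues through the factor Stat6, and its share of a cell's UMIs is used here only to order cells.

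Promoter windows of RefSeq (build GRCm38.p6, 250 bases before to 50 after a transcript start) were found for 3 of the 6 genes, Fcer2a, Pigr and Ly6c2. The 2 windows shown are those that held a match to a motif given below. Fcer2a has 3 windows on the minus strand of chromosome 8, and the one shown is chr8:3690812-3691111. The Pigr window is chr1:130826434-130826733 on the plus strand. Capitals mark TTCNNNNGAA in Fcer2a, the spacing that Stat6 prefers, and TTCNNNGAA in Pigr, the spacing of other Stat factors, each read 5′ to 3′ on the gene's strand.
Fcer2a: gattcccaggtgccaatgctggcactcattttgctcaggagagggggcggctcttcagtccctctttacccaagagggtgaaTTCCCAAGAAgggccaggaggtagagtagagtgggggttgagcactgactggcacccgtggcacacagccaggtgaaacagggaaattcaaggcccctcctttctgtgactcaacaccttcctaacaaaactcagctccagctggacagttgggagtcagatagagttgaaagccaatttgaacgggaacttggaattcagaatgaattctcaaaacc
Pigr: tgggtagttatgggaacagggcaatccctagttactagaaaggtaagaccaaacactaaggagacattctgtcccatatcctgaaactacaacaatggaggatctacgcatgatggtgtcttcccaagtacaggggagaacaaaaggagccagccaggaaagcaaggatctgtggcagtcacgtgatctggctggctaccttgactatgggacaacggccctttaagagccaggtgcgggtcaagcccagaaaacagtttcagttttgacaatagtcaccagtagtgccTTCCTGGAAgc
The Fcer2a match began at position -168 from the transcript start and the Pigr match at position 39. The other 2 Fcer2a windows and both Ly6c2 windows held neither motif, and Pigr held no TTCNNNNGAA. The Retnla window held TTCNNNNGAA at position -145. Both motifs read the same on both strands, and they occurred in 6.95% (TTCNNNNGAA) and 8.30% (TTCNNNGAA) of the 32851 windows of this length. Whether the windows searched here hold more matches than these shares would give was not tested. A match describes letters and says nothing of binding.

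Among the receptors for microbes and immunoglobulins, all 4 were detected in every library, at their lowest in library A. Levels are UMIs per 1000000 UMIs of a library (CPM), and since each molecule is counted at its 3 prime end they are not divided by length. Cd14 (ENSMUSG00000051439, chromosome 18, 36725067 to 36726798, minus strand, GRCm38) was at 19.6 CPM in library A, 96.9 in B and 110 in C. Cd79b (ENSMUSG00000040592, chromosome 11, 106311341 to 106314762, minus strand) was at 25.9, 131 and 144 CPM in the same order. Fcer2a (ENSMUSG00000005540, chromosome 8, 3681737 to 3694175, minus strand) was at 1.35 CPM in library A, from 86 UMIs, at 24.8 in B and at 20.3 in C. Pigr (ENSMUSG00000026417, chromosome 1, 130826684 to 130852249, plus strand) was at 11.9 CPM in library A, 706 in B and 266 in C. The counting intervals of each of these 4 genes did not overlap between any of the libraries. The share of all genes of which this holds was not counted, so it is no result about these 4. Cells of a library share 1 preparation, and these are values of 3 preparations.

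The transcripts of the adhesion molecule and the Ly6 protein stood highest in library A. Pecam1 (ENSMUSG00000020717, chromosome 11, 106654217 to 106750628, minus strand) was at 88.7 CPM in library A, 0.760 in B and 0.863 in C. It had a UMI in 23.1% of cells of library A (3773 of 16367), in 0.501% of B (28 cells) and in 0.302% of C (44 cells), and most of those cells in B and C held 1 UMI (23 and 42 cells). Ly6c2 (ENSMUSG00000022584, chromosome 15, 75108158 to 75111970, minus strand) was at 39.6 CPM in library A, 21.5 in B and 7.69 in C. Its near copy Ly6c1, on the same chromosome, was at 73.5, 97.9 and 74.4 CPM, with overlapping intervals in A and C. Over the last 500 bases of the 4 annotated Ly6c2 transcripts, 0 of 696 distinct stretches of 90 bases, the length of a read, also occur in a transcript of another gene, and the same held for Cd14, Cd79b, Fcer2a and Pecam1. For Pigr it was 8 of 846.

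**Figure D1:**
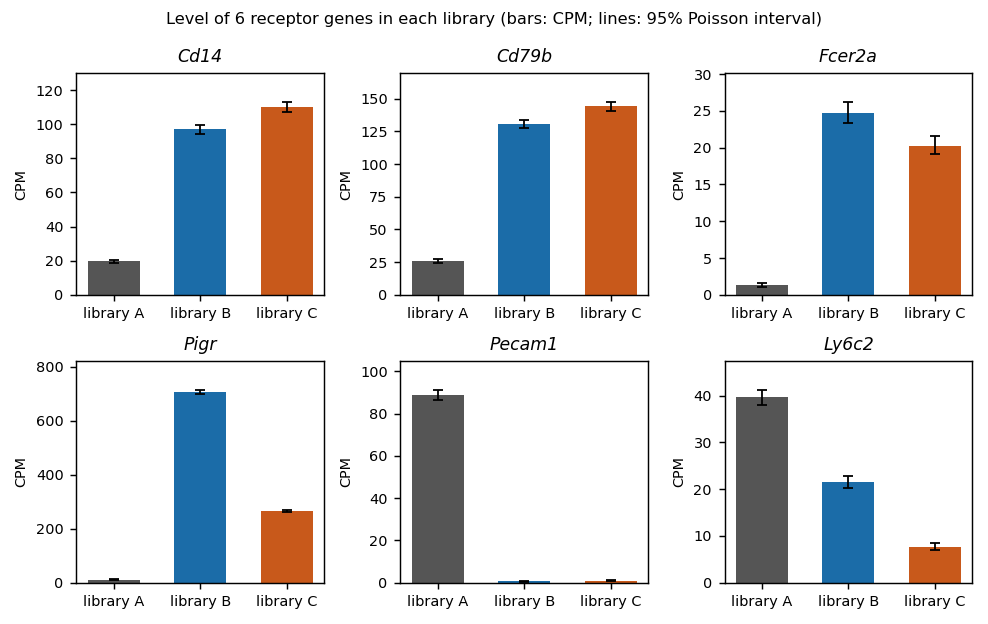
Level of each gene in libraries A, B and C, in UMIs per 1000000 (CPM) on a linear axis that starts at 0 for each gene, with 95% Poisson intervals as lines. Cd14, Cd79b, Fcer2a and Pigr stand lowest in library A, while Pecam1 (88.7 CPM) and Ly6c2 (39.6 CPM) stand highest there.

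With depth equalised, the share of cells with a UMI followed the order of the levels for 5 of the 6 genes. Thinned to 1000 UMIs per cell, which left out no cell, Pigr was found in 0.916% of cells of library A, 43.1% of B and 19.6% of C (3.19%, 84.9% and 44.4% unthinned). Cd79b was found in 2.60%, 11.5% and 12.8% of thinned cells (9.48%, 54.7% and 34.2% unthinned), and Cd14 in 1.71%, 8.71% and 9.43% (6.28%, 45.6% and 28.3% unthinned). Fcer2a was found in 0.104%, 2.22% and 1.74% (0.477%, 17.0% and 6.54% unthinned), and Ly6c2 in 3.53%, 1.79% and 0.686% (13.0%, 14.9% and 2.67% unthinned). Pecam1 was found in 7.93%, 0.0894% and 0.0686%, with B above C where its CPM had C above B. Free RNA in droplets also gives single UMIs, and these libraries hold no cell type that lacks all 6 genes to set beside them, so the part of free RNA in these shares was not tested. Ptprc, which encodes the leukocyte antigen CD45, had a UMI in 1 cell of each library.

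The cells that held these transcripts carried ATII transcripts. Of the cells with a UMI of Cd14, Cd79b, Fcer2a or Ly6c2, at least 99.2% had 1% or more of their UMIs from Sftpc, the surfactant protein C gene, in each library, against 96.2% to 99.99% of all cells. For Pigr the lowest share was 98.7% (library B). Of the few cells with a Pecam1 UMI, it was 92.9% of 28 in B and 95.5% of 44 in C, and in library A it was 99.97% of 3773. Nearly every cell passed this mark, with Sftpc at 255076, 128764 and 116228 CPM in A, B and C, so the mark separates cells little. The median Sftpc share was 25.9%, 12.9% and 11.7% of UMIs in all cells. In cells with any 1 of the 6 transcripts it was 22.9% to 26.0% in A, 11.2% to 15.2% in B and 9.45% to 14.2% in C. The epithelial adhesion gene Epcam had a UMI in 58.1% to 65.4% of cells with any 1 of the 6 transcripts in A, 82.1% to 94.0% in B and 68.9% to 77.3% in C. Of all cells it was 57.6%, 88.5% and 67.3%, and the 82.1% was that of Pecam1 cells in B. These shares are not at equal depth, since cells with a receptor UMI had more UMIs in the median than all cells of their library. Only Pecam1 cells of B had fewer (7582 against 8349). Since only 1 cell of each library held a Ptprc UMI, at most 1 cell with a given receptor transcript could hold one. That cell also held Ly6c2 in every library, Pigr in B and C, and Cd14 in B.

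Of the genes that mark the cell types these receptors are known from, many were at or near 0 and a few were well expressed. For Cd79b, the other 12 B cell genes came to a total of 2.97 CPM in library A, 3.92 in B and 2.46 in C. Its partner Cd79a was at 1.78, 0.144 and 0.375 CPM, and Ighd, Ighm, Igkc and Pax5 had 0 UMIs in all 3 libraries. For Pecam1, the 13 other endothelial genes held Esam at 56.3, 76.4 and 78.4 CPM and Egfl7 at 8.61, 11.3 and 19.1 CPM. The defining genes Cdh5, Kdr, Cldn5, Emcn and Tie1 were each at or under 0.0785 CPM. Tek was at 3.52, 0.596 and 0.225 CPM and Eng at 3.42, 0.164 and 0.225 CPM, highest in library A like Pecam1. For Cd14 and Ly6c2, the 11 other monocyte genes summed to 566 CPM in A, of which Apoe gave 555, and to 2.38 and 2.83 CPM in B and C, with C1qa and C1qb at 0 in every library and Ccr2 at 0 in B and C. The 10 T or NK cell genes summed to at most 0.0411 CPM, and the 6 mast cell or basophil genes to at most 0.157 CPM. The 11 leukocyte genes held Lcp1 at 123, 158 and 104 CPM and Rac2 at 0.189, 26.6 and 16.6 CPM, with the 9 others at or under 1.05 CPM. Of the 6 plasma cell genes Sdc1 was at 216, 95.1 and 121 CPM. Of the platelet genes Pf4 stood at 9.02, 801 and 825 CPM. The 12 alveolar macrophage genes summed to 31.6, 52.8 and 20.5 CPM, led in A and B by Plet1, the 8 neutrophil genes to 1.85, 14.1 and 14.6 CPM, mostly Retnlg in B and C, and the 8 dendritic cell genes to at most 5.36 CPM.

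**Figure D2:**
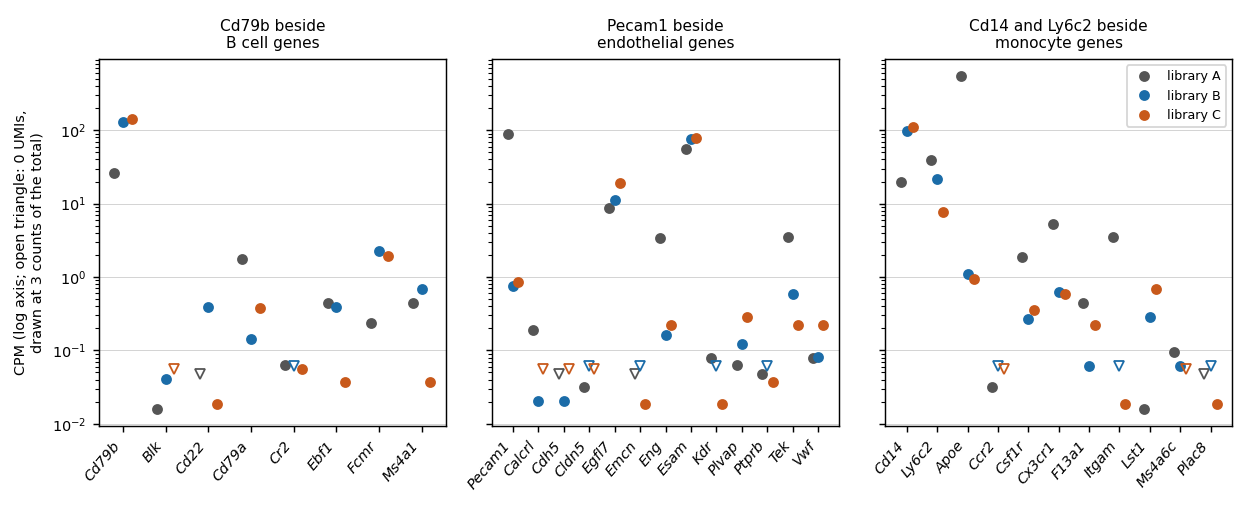
CPM on a log axis of Cd79b beside B cell genes, of Pecam1 beside endothelial genes, and of Cd14 and Ly6c2 beside monocyte genes, in each library, for the list genes with a UMI in at least 1 library, with open triangles at 3 counts of the total where a gene had 0 UMIs. Cd79b stands above the other B cell genes shown in each library, Pecam1 stands above the other endothelial genes shown only in library A, and Apoe in library A is the highest monocyte gene.

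Cells with high Retnla held more Cd79b, Fcer2a and Pigr than cells with low Retnla of the same library, in both B and C. Retnla-high cells had at least 1% of their UMIs from Retnla and Retnla-low cells under 0.2%, which are ranges of a measured share and not cell types or treatments. Library B held 2310 Retnla-high and 1776 Retnla-low cells, with medians of 9319 and 6450 UMIs, and library C held 7595 and 6264, with 3636 and 3092. Between 0.8% and 1.2% lay 676 cells of B and 380 of C, and between 0.15% and 0.25% lay 177 and 143. Library A held 2 Retnla-high cells and was not compared. A gene is called higher or lower with a fold of at least 2 on the CPM + 1 scale and at least 20 CPM in either range. In B 4 of the 6 genes were called higher (Cd79b, Fcer2a, Pigr and Ly6c2), where 2.06% of the 4850 genes were called higher and 3.24% lower. In C 3 were called higher (Cd79b, Fcer2a and Pigr), where 2.03% of the 4739 genes were called higher and 2.7% lower. None of the 6 was called lower.

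Cd79b was at 179 CPM in Retnla-high and 60.9 CPM in Retnla-low cells of library B. The log2 fold was 1.54 (1.44 to 1.67, the interval being that of the ratio without the added 1 CPM, as for all folds here). In library C it was at 206 and 63.2 CPM, a log2 fold of 1.69 (1.62 to 1.79). Thinned to 1000 UMIs, 15.9% of Retnla-high against 6.31% of Retnla-low cells of B held a Cd79b UMI, and 18.0% against 6.56% in C. In 8 finer ranges of the Retnla share, from under 0.05% to 4% and more, its level went up from 55.6 to 246 CPM in B with each step, and from 60.3 to 241 CPM in C with 1 step down, from 110 CPM at 0.1 to 0.2% to 98.5 CPM at 0.2 to 0.5%, within overlapping intervals. Over the ranges of all libraries it ran from 25.8 CPM in Retnla-low cells of A, through Retnla-low and Retnla-intermediate cells of B and C, to the Retnla-high cells. Intervals of B and C overlapped in the low and in the intermediate range and not in the high range. For what share of all genes intervals part in this way was not counted, so it is no result about Cd79b.

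Fcer2a was at 31.6 CPM in Retnla-high and 10.8 CPM in Retnla-low cells of B, a log2 fold of 1.47 (1.28 to 1.83). In C it was at 31.2 and 6.05 CPM, a log2 fold of 2.19 (2.10 to 2.65). The Retnla-high levels of the 2 libraries had overlapping intervals, whereas the Retnla-low levels did not. Here too the share of all genes of which this holds was not counted, so it is no result about Fcer2a. In B the finer ranges held 10.5, 10.4, 13.5, 24.7, 27.2, 27.4, 32.2 and 60.3 CPM from the lowest Retnla share to the highest. The last of these ranges, 176 cells with 98 Fcer2a UMIs, stood apart from the one before it. In C the highest range held 35.4 CPM against 6.19 CPM in the lowest. A UMI was found in 3.51% of Retnla-high against 0.563% of Retnla-low thinned cells of B, and in 2.79% against 0.527% in C.

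Pigr was at 867 CPM in Retnla-high and 330 CPM in Retnla-low cells of B, a log2 fold of 1.39 (1.35 to 1.44). In C it was at 383 and 107 CPM, a log2 fold of 1.83 (1.77 to 1.91). Each library and range had its own level, without overlap of the intervals, and Retnla-low cells of B (330 CPM) stood next to Retnla-high cells of C (383 CPM). The share of all genes with such gaps was not counted, so the gaps are no result about Pigr. Along the finer ranges Pigr climbed early and then levelled. In B it was at 285 CPM below 0.05% Retnla, 744 CPM at 0.2 to 0.5%, 905 CPM at 2 to 4% and 778 CPM at 4% and more. In C it was at 103 CPM in the lowest range and at 379, 372 and 394 CPM in the 3 ranges from 1% upwards. Of thinned cells, 54.2% of Retnla-high against 23.0% of Retnla-low cells of B held a Pigr UMI, and 28.6% against 8.78% in C.

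Cd14 differed less between the ranges, and its course was not the same in the 2 libraries. It was at 108 CPM in Retnla-high and 92.4 CPM in Retnla-low cells of B, a log2 fold of 0.22 (0.12 to 0.33), and at 138 and 73.9 CPM in C, a log2 fold of 0.89 (0.81 to 0.98). Neither fold passed the size rule. In B Cd14 was at 106 CPM in the lowest range, 48.2 CPM at 0.05 to 0.1% and 143 CPM at 4% and more. In C it was at 75.7, 62.3 and 143 CPM in those ranges. When cells in the highest 20% of a transitional or mitotic score were left out, the log2 fold in B was -0.12. A UMI was found in 10.1% of Retnla-high against 7.88% of Retnla-low thinned cells of B, and in 12.1% against 6.35% in C.

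Ly6c2 was at 28.5 CPM in Retnla-high and 10.96 CPM in Retnla-low cells of B, a log2 fold of 1.30 (1.11 to 1.66). In C it was at 9.21 and 6.05 CPM, below the minimum level for a call, with a log2 fold of 0.54 (0.30 to 0.92). Its near copy Ly6c1 was at 102 and 111 CPM in B, a log2 fold of -0.12, and at 68.3 and 83.6 CPM in C, a log2 fold of -0.29. Under TMM scaling the Ly6c1 fold in B was 0.01. Thinned to 1000 UMIs, 2.64% of Retnla-high against 0.619% of Retnla-low cells of B held a Ly6c2 UMI, and 0.882% against 0.527% in C. Pecam1 was between 0.375 and 1.37 CPM in the Retnla-high, intermediate and low cells of B and C, with 13 and 17 UMIs in Retnla-high and Retnla-low cells of B and 35 and 8 in C. In library B 6 of the 17 came from 1 cell.

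**Figure D3:**
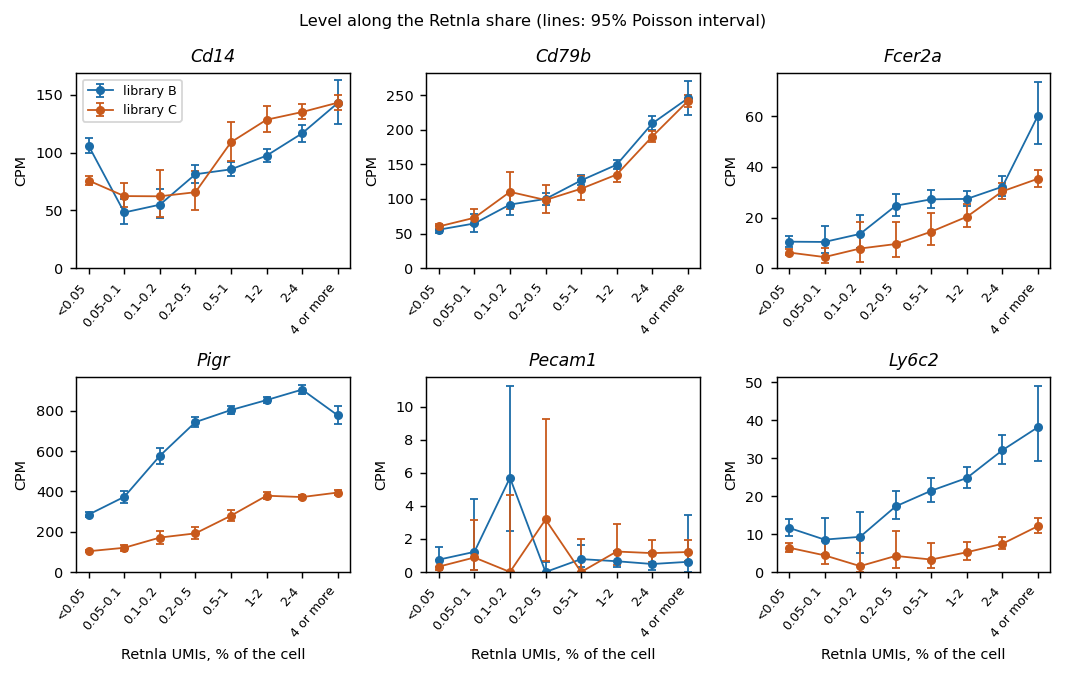
CPM of each gene in 8 ranges of the share of a cell's UMIs that come from Retnla, from low to high, in libraries B and C, with 95% Poisson intervals. Cd79b climbs along nearly the whole scale to 246 and 241 CPM, Pigr levels off above 1%, Cd14 dips at low shares, and Pecam1 lies between 0 and 5.70 CPM with wide intervals.

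The calls in library B depended on where the ranges were cut. With a single limit at 0.5% Retnla 1 of the 6 genes was called higher, Cd79b at 1.17, while Fcer2a (0.98), Ly6c2 (0.99) and Pigr (0.91) were under 1. Without the cells in the highest 20% of the transitional or mitotic score 2 were called higher, Cd79b (1.33) and Fcer2a (1.31), with Pigr at 0.88 and Ly6c2 at 0.71. In library C the 3 calls held under both settings. Thinned to 1000 UMIs, the log2 fold in B was 2.49 for Fcer2a and 1.95 for Ly6c2. Among all genes, ordered by fold, Cd79b was number 48, Fcer2a 53, Pigr 58, Ly6c2 64 and Cd14 817 of 4850 in B, and Fcer2a was number 31, Pigr 44, Cd79b 50 and Cd14 114 of 4739 in C. The median log2 fold of all genes was -0.12 in B and -0.07 in C. Scaling by TMM factors shifted all folds by 0.13 in B, where 122 genes were then called higher and 125 lower against 100 and 157, and by 0.08 in C.

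Genes known to work with each receptor were set beside it, and their counts of calls are read against the shares of all genes called higher (2.06% in B, 2.03% in C) and lower (3.24% and 2.7%), so 0 calls among a few genes is no result about a list. Of the 17 other genes of lipopolysaccharide sensing, 5 reached 20 CPM in a range of B and 3 in C, with 0 called in either direction and a median log2 fold, over the genes at that level as for each list here, of 0.13 and 0.10. Levels over libraries A, B and C were 463, 298 and 279 CPM for Nfkbia, the inhibitor of NF-kB, 63.4, 38.03 and 32.8 CPM for Nfkb1, and 48.2, 35.4 and 36.3 CPM for Lbp, which delivers lipopolysaccharide to CD14. The receptor Tlr4 was at 29.1, 14.2 and 11.5 CPM, the kinase gene Irak1 at 38.6, 23.9 and 17.4, the NF-kB subunit Rela at 29.96, 19.8 and 18.2, and the adaptor Myd88 at 22.4, 9.66 and 14.2 CPM. These 7 genes were highest in library A. The list's genes under 20 CPM went both ways, and those given here were named after their values were seen. Ly96 was at 6.11, 14.2 and 12.9 CPM, Ticam1 at 3.77, 6.37 and 6.17 CPM and Irak4 at 3.86, 5.38 and 5.85 CPM, lowest in A like Cd14. Highest in A, unlike Cd14, were Traf6 at 16.7, 11.07 and 10.99 CPM, Tnfaip3 at 12.2, 10.7 and 9.96 CPM and Tirap at 6.14, 5.88 and 5.49 CPM. The list's 4 remaining genes were under 1 CPM in each library. The log2 fold of Tlr4 was 0.69 in B and 0.64 in C, under 20 CPM in each range.

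Of the 14 other genes of B cell receptor signalling 2 reached 20 CPM in a range of B and of C. Cd81, a tetraspanin made by many cell types, was at 231 CPM in Retnla-high and 474 CPM in Retnla-low cells of B, a log2 fold of -1.04, and was called lower. In C it was at 390 and 604 CPM, a log2 fold of -0.63. The kinase gene Lyn was at 39.4 and 31.3 CPM in B and at 30.7 and 21.2 CPM in C. Vav2, an exchange factor, reached 20 CPM in library A only (28.4 CPM). The list's median log2 fold was -0.36 in B and -0.06 in C.

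Of the 13 other genes tied to Fc receptors 2 reached 20 CPM in a range of B and of C. Adam10, whose protease cuts CD23 from the cell surface, was at 30.02 CPM in library A, 31.0 in B and 29.0 in C and had log2 folds of -0.04 and 0.04. Lgals3, the gene of an IgE-binding galectin that also marks transitional cells, was at 112 CPM in Retnla-high and 530 CPM in Retnla-low cells of B and at 78.2 and 389 CPM in C. Its log2 folds of -2.23 and -2.30 were called lower, and the list's median over these 2 genes was -1.13 in both libraries.

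Of the 11 other genes of polymeric immunoglobulin transport 6 reached 20 CPM in a range of B and of C, with medians of -0.27 and -0.24. The membrane mucin gene Muc1, with 104 CPM in Retnla-high and 255 CPM in Retnla-low cells of B, was called lower there (log2 fold -1.28) and not in C (238 and 353 CPM, -0.56). The trafficking genes Rab25 (56.2 CPM in library A, 190 in B and 213 in C), Rab11a (56.4, 132 and 145), Exoc4 (85.0, 78.1 and 73.3), Rab3d (17.7, 25.3 and 25.3) and Myo5b (174, 26.4 and 21.6) had log2 folds between -0.55 and 0.57 in B and within 2-fold in C.

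Of the 12 other adhesion genes 6 reached 20 CPM in a range of B and of C and 0 were called, with medians of -0.34 and -0.33. Over libraries A, B and C, Icam1 was at 204, 193 and 246 CPM, the junction gene F11r at 96.4, 65.3 and 94.9 CPM and the CD31 ligand Cd38 at 2.04, 27.3 and 31.1 CPM. The CD31-binding integrin subunit gene Itgav was at 105, 28.0 and 23.3 CPM, and Cd47 at 134, 178 and 167 CPM. Of the 17 other Ly6 family genes 4 reached 20 CPM, with medians of -0.60 and -0.13. Ly6a, the gene of Sca-1, was called lower in B, with 52.3 CPM in Retnla-high and 144 CPM in Retnla-low cells (log2 fold -1.45), and was at 56.5 and 91.1 CPM in C. Ly6e was at 495 CPM in library A, 460 in B and 531 in C, and Ly6i at 13.2, 134 and 101 CPM.

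Of 15 other genes of the IL-4 response 7 reached 20 CPM in a range of B, of which 5 were called higher, and 6 in C, of which 4 were called higher. Chil4, a chitinase-like gene, was at 12763 CPM in Retnla-high and 1762 CPM in Retnla-low cells of B and at 3497 and 67.2 CPM in C. The feedback inhibitor gene Socs2 was at 222 and 81.7 CPM in B, a log2 fold of 1.43, and at 199 and 64.3 CPM in C, a log2 fold of 1.61. Not called among the genes at that level were Jak1 in both libraries (log2 folds of 0.52 in B and 0.28 in C), Slc26a4 in B (0.92) and Cish in C (0.67). The median was 1.43 in B and 1.77 in C. The pathway lists were written with results of these data known.

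**Figure D4:**
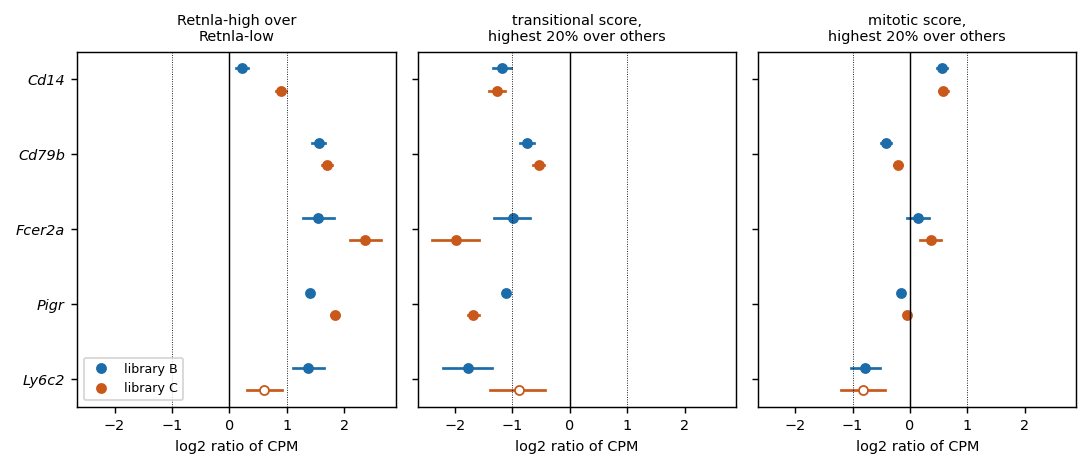
Log2 ratio of CPM, without an added constant, for Retnla-high over Retnla-low cells and for the highest 20% of the transitional and of the mitotic score over the other cells, in libraries B and C, with 95% exact intervals as lines. Dotted lines mark 2-fold, and open points are under 20 CPM in both groups. Cd79b, Fcer2a and Pigr lie right of 1 in the first panel in both libraries, and all 5 genes lie left of 0 in the second.

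Cells rich in transitional transcripts held less Cd14 and Pigr than the other cells of libraries B and C. The score is the summed share of UMIs from 14 genes that mark ATII cells on the way to the flat alveolar type I cell, such as Krt8, Krt19 and Lgals3. Cells in its highest 20% had fewer UMIs, with medians of 5685 against 8920.5 in the other cells of B, and 2883 against 3491.5 in C. In B 3 of the 6 genes were called lower in the highest 20% of the score, where 3.4% of all genes were called lower and 5.02% higher. Cd14 was at 46.7 CPM there and 106 CPM in the other cells, a log2 fold of -1.16 (-1.34 to -1.01). Pigr was at 355 and 765 CPM (-1.11) and Ly6c2 at 7.05 and 24.0 CPM (-1.63). In C 3 genes were called lower, where 3.03% of all genes were called lower and 4.64% higher. Cd14 was at 50.8 and 122 CPM (-1.25), Pigr at 94.3 and 302 CPM (-1.67) and Fcer2a at 5.93 and 23.2 CPM (-1.81). Cd79b was at 82.8 and 139 CPM in B (-0.74) and at 105 and 152 CPM in C (-0.54), within 2-fold in both. In library A none of the 6 was called, where 0.0384% of all genes were called lower and 0.577% higher, and Pecam1 was at 64.6 and 94.4 CPM, a log2 fold of -0.54 (-0.66 to -0.44).

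The transitional and Retnla scales overlap. In B 4.24% of Retnla-high and 45.0% of Retnla-low cells were in the highest 20% of the transitional score, and in C 7.54% and 33.8%. Within Retnla-low cells, Cd14 was at 30.1 CPM in the highest 20% and 130 CPM in the others in B, and at 31.8 and 92.3 CPM in C, log2 folds of -2.07 and -1.51. Within Retnla-high cells it was at 87.3 and 109 CPM in B and at 120 and 139 CPM in C, log2 folds of -0.31 and -0.22. Pigr was at 163 and 430 CPM in Retnla-low cells of B and at 39.0 and 137 CPM in those of C. In Retnla-high cells it was at 811 and 869 CPM in B and at 260 and 392 CPM in C. Cd79b within a Retnla range had log2 folds of -0.35 in Retnla-high and -0.26 in Retnla-low cells of B, and of 0.19 and 0.06 in C. Fcer2a was at 36.0 and 31.4 CPM in Retnla-high cells of B and at 19.6 and 32.1 CPM in those of C. In Retnla-low cells it was at 5.59 and 13.9 CPM in B and at 2.00 and 7.81 CPM in C, log2 folds of -1.18 and -1.55.

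**Figure D5:**
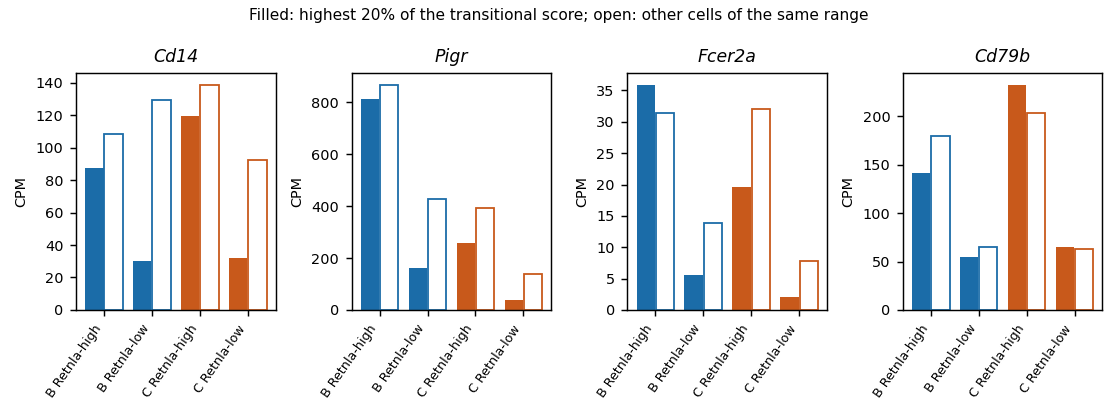
CPM of Cd14, Pigr, Fcer2a and Cd79b in cells of the highest 20% of the transitional score (filled bars) and in the other cells (open bars), within Retnla-high and Retnla-low cells of libraries B and C. In Retnla-low cells Cd14 stands at 30.1 and 31.8 CPM in the filled bars against 130 and 92.3 CPM in the open ones, while the Cd79b log2 folds within a range lie between -0.35 and 0.19.

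Cd14 was higher in the highest 20% of a mitotic score than in the other cells of both B and C, within 2-fold. The mitotic score sums 12 genes such as Mki67 and Top2a. Its highest 20% are written as mitotic cells below, which is a range of the score and not a cell type. They had medians of 9806 UMIs against 8128.5 in the other cells of B, and 4853.5 against 3183.5 in C. In the highest 20% of that score none of the 6 genes was called in B, where 6.87% of all genes were called higher and 0.337% lower, or in C, where 6.98% were called higher and 0.928% lower. Cd14 was at 129 CPM in mitotic and 87.4 CPM in other cells of B, a log2 fold of 0.55 (0.47 to 0.65), and at 146 and 97.5 CPM in C, a log2 fold of 0.57 (0.50 to 0.66). Within Retnla-low cells it was at 141 and 69.9 CPM in B and at 119 and 59.6 CPM in C, log2 folds of 1.01 and 0.99. Within Retnla-high cells it was at 134 and 101 CPM in B and at 162 and 128 CPM in C. TMM factors shifted folds of this contrast by -0.19 in B and -0.20 in C, where 279 genes were then called higher and 36 lower in B against 347 and 17, and 269 and 80 in C against 346 and 46. Under them Cd14 was at 0.36 and 0.38, and Fcer2a at -0.05 in B and 0.15 in C against 0.14 and 0.34 before. Ly6c2 was at 13.9 CPM in mitotic and 23.8 CPM in other cells of B, a log2 fold of -0.74, and Cd79b at 104 and 139 CPM (-0.41).

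The genes most like each receptor were sought over 14 groups of cells, formed by library, Retnla range and transitional range, among 6754 genes. The groups share libraries and depth, and Retnla was used to form them, so the Pearson r of log2(CPM + 1) is a description. For Cd79b the closest gene was Retnla (r = 0.98), then Cldn10 (0.96) and Sox9 (0.96). For Pigr it was Sec11c (0.98), then Cxcl3 (0.98) and Lacc1 (0.98), and for Fcer2a Medag (0.97), Ceacam10 (0.96) and Vnn3 (0.96). Cd14 was close to Stk16 (0.97) and Mdh1 (0.96). Pecam1 was closest to Mfsd2a (0.97), at 40.4 CPM in library A and 0.103 and 0.0938 in B and C, then to Tesk2 (0.97) and Coq8b (0.96). Ly6c2 was closest to Yae1d1 (0.96), Cyb5b (0.92) and Birc3 (0.92). Among the 6 themselves Fcer2a and Pigr were most alike (0.95), Cd14 and Fcer2a followed at 0.88, and Pecam1 ran against Cd14 (-0.79), Cd79b (-0.73), Fcer2a (-0.68) and Pigr (-0.76). Ly6c2 had an r between -0.21 and 0.49 with the others.

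In single Retnla-high cells thinned to 1000 UMIs the share with a receptor was close in cells with and without another, mostly within overlapping intervals. In library C, 18.3% of 921 cells with Cd14 and 17.9% of 6674 cells without it held Cd79b (intervals 15.9 to 21% and 17.0 to 18.8%). Pigr was found in 36.3% of 212 cells with Fcer2a (29.8 to 43.2%) and in 28.3% of 7383 cells without it (27.3 to 29.4%). These intervals did not overlap. Read the other way, the same cells gave Fcer2a in 3.55% of cells with Pigr (2.81 to 4.42%) and in 2.49% of cells without it (2.09 to 2.94%), with overlapping intervals. Both readings describe the same link between the 2 genes, which was not tested. In library B, Pigr was found in 50.6% of 81 cells with Fcer2a (39.3 to 61.9%) and in 54.4% of 2229 cells without it (52.3 to 56.5%). At this depth a cell that expresses a gene often shows no UMI of it, so weak links between genes were not detectable.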

How the data were processed

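RNA of single cells was captured in droplets and sequenced from its 3 prime end (10x Genomics), per the labels' protocols. The authors deposited 1 matrix of raw UMI counts (whole numbers), and its tools were bcl2fastq and Cell Ranger 6.0.1, per the submitters' processing notes, which name GRCm38. Cell calling and doublet removal are not given in the sources used here. Gene IDs were matched to GENCODE M21, which named 52489 of 52636. The 147 others held 0.0098% of UMIs and stayed out of tests of size. The tag libraries were not analysed here.

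Cells with at least 1000 UMIs, 500 genes and at most 15% mitochondrial UMIs (37 genes) were kept, 36540 of 36584. No doublet caller was run; the 5% of cells with the most UMIs were left out as an alternative. Counts were summed per library or range and scaled to CPM, and log2 folds used CPM + 1. Retnla itself was left out of counts of genes. Intervals are 95% exact Poisson (CPM), exact conditional (ratios) or Clopper-Pearson (shares). The size rule was tested on simulated data.

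Named genes were the 6, reference genes, the 3 most alike by Pearson r, and list genes with at least 20 CPM, up to 8 per pathway and 3 per marker list; list genes near 0 that define a cell type were added after values were seen, and a few named genes are not reported here. The genes, lists and ranges were chosen with earlier results of these data known. Alternatives were other limits, scalings, pseudocounts, depths and cells. BLAST 2.17.0, Python 3.11.15 (scipy 1.17.1, numpy 2.4.6, matplotlib 3.10.9, pandas 2.3.3), R 4.3.3 and edgeR 4.0.16 (TMM only, on deposited counts) were used.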

Additional observations from a re-analysis of the deposited data

Results flagged for a closer look

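Pecam1 had opposite signs in Retnla-high over Retnla-low cells of the 2 libraries compared, with a log2 fold of -0.58 in library B (13 and 17 UMIs) and 0.67 in library C (35 and 8 UMIs). The difference between the libraries was not tested, and both values rest on levels near 1 CPM. Without 1 cell of library B that held 6 Pecam1 UMIs, the Retnla-low cells there held 11.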

How the results depend on the processing

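Members called at least 2-fold higher in Retnla-high cells of library B numbered 4, against 1 with a single limit at 0.5% Retnla and 2 without the highest 20% of the transitional and mitotic scores, and 4 under the 12 other settings tried; in library C they numbered 3 under all 14. Genes called higher in B numbered 100, against 224 with no minimum level, 48 with a minimum of 50 CPM and 49 with the single limit, and genes called lower numbered 157, against 421, 87 and 89. In C 96 were called higher, against 241 with no minimum and 45 at 50 CPM, and 128 lower, against 307 and 72. Over the 14 settings log2 folds in B ranged from -0.12 to 0.42 for Cd14, 1.17 to 1.90 for Cd79b, 0.98 to 2.49 for Fcer2a, 0.88 to 1.58 for Pigr and 0.71 to 1.95 for Ly6c2, and in C from 0.73 to 0.97, 1.56 to 1.93, 1.71 to 2.37, 1.56 to 1.93 and 0.36 to 0.75. In the highest 10% of the transitional score the folds were larger, Cd14 at -2.06 in B and -2.10 in C. The rule meant to remove cells with leukocyte transcripts took out 62.5%, 53.4% and 13.4% of cells of libraries A, B and C, since Lcp1, Rac2, Apoe and Plet1 were among its genes; a stricter rule and the removal of shared barcodes were added after seeing the data. No setting moved a library's level of the 6 genes by as much as 1.5 times, but levels did move by less. With Sftpc and Retnla left out of the total, Cd14 went from 19.6 to 26.3 CPM in library A and from 96.9 to 113 CPM in B. The first leukocyte rule took Pigr in B from 706 to 560 CPM. The causes of these differences were not tested. Small counts limit what can be said of Pecam1 in B and C and of Fcer2a in A, with 37, 46 and 86 UMIs. No paired analysis was possible because each group has 1 library and cells carry no sample label.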

Other observations

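A few cells of library A held much more Pigr or Cd14 than the rest, and were picked after those values were seen. In the 29 cells with at least 4 Pigr UMIs, none of which shared a barcode with another library, Fcer2a was at 89.7 CPM (15 UMIs) against 1.12 CPM in the other 16338 cells, and Retnla at 365 against 26.5 CPM. The same 29 cells held Lcn2, an iron-trapping antimicrobial gene, at 9300 against 1005 CPM, Ly6i at 329 against 12.4, the chemokine gene Cxcl5 at 227 against 4.43, the anion exchanger gene Slc26a4 at 191 against 11.7 and the club cell gene Scgb1a1 at 10764 against 2481 CPM. Sftpc was at 207757 against 255200 CPM, and Ptprc had 0 UMIs in them. In the 17 cells with at least 4 Cd14 UMIs, Retnla was at 1800 CPM (157 UMIs) against 24.98 CPM. Of all cells of library A, the one richest in Retnla held 130 UMIs, and whether it is among the 17 was not checked. Pigr was at 183 against 11.7 CPM in the 17 cells, Lcn2 at 9219 against 1016 and Scgb1a1 at 15595 against 2485 CPM. The 187 cells with at least 4 Pecam1 UMIs had Lcn2 at 1049 against 1027 CPM, Retnla at 18.2 against 27.5 and Scgb1a1 at 1150 against 2522 CPM.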
